A study of Mus musculus with 18 samples.

Results

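Whether the STING agonist cGAMP and the compound SB24011 acted on the transcriptome of RAW264.7 cells independently of each other was read from a design of 4 treatments that crosses the 2 agents. The cells were treated for 6 h in medium without serum with cGAMP and SB24011 together, with cGAMP alone, with SB24011 alone, or with DMSO, each agent at 20 uM, and there were 3 libraries per treatment. These 12 libraries are the members, chosen by their treatment labels, out of 18 in the series; the other libraries received cGAMP with 10 uM SB24011 or with the analog 7a at 20 uM. RAW264.7 is an established mouse macrophage-like line, labelled wild type, and all groups share it; the labels do not say whether the 3 libraries of a treatment came from separate cultures, so p-values measure only the spread between libraries.

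cGAMP is the cyclic dinucleotide that the DNA sensor cGAS makes, and it binds STING, an adaptor of the endoplasmic reticulum that activates the kinase TBK1, the interferon regulatory factor IRF3 and NF-kappaB. In macrophages this induces type I interferon, interferon-stimulated genes and inflammatory cytokines. The series describes SB24011 as an inhibitor of the contact between STING and TRIM29, a ubiquitin ligase known to promote loss of STING, and 7a as its negative analog.

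Each library held between 45165780 and 65810517 reads assigned to genes. Of 45777 genes listed, 14650 passed the filter on low counts and were tested. The 10 macrophage markers were all detected, with a summed level of 4900 to 5934 CPM with both agents, 5631 to 6402 CPM with cGAMP, 4698 to 5516 CPM with SB24011 and 5826 to 6875 CPM with DMSO, where CPM is a read count scaled to library size with TMM factors. All 5 epithelial markers were at 0, and 4 of 5 fibroblast, neutrophil and T cell markers were at 0. The T cell kinase gene Lck, the only T cell marker with reads, was at 20.8 to 25.3 CPM with both agents, 15.7 to 19.8 CPM with cGAMP, 10.9 to 11.6 CPM with SB24011 and 5.90 to 7.69 CPM with DMSO, and its part in the results was not tested. The summed endothelial markers were at 3.24 to 5.30 CPM with both agents and at 0.431 to 0.470 CPM with DMSO, and those of B cells at most 3.50 CPM, with both agents. Trim29 had 5 reads in 1 of the 18 libraries and none in the others, and was not tested. In such bulk libraries, fewer cells of a kind and less RNA per cell cannot be told apart.

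Additivity has a different meaning on each scale, so both were tested for every gene. The product expectation is the DMSO level multiplied by the fold change of each agent alone, and log2 non-additivity is the log2 ratio of the level with both agents to it. The sum expectation is the DMSO level plus the change in CPM of each agent alone, and linear non-additivity is the level with both agents minus it. Where the agents alone move a gene in the same direction, the product expectation lies above the sum. Where they move it in opposite directions, the product lies below the sum. A gene exactly at one expectation can therefore depart from the other. The first was tested with edgeR's quasi-likelihood F-test and the second with a Wald test on the same fit, both two-sided. Calls were made at a Benjamini-Hochberg adjusted p under 0.05 over the whole table.

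Most genes tested were called on neither scale. The level with both agents was above the product for 36 genes (0.246% of those tested) and below it for 18 (0.123%), which is 0.369% in all. It was above the sum for 136 genes (0.928%) and below it for 17 (0.116%), which is 1.04% in all. At an unadjusted p under 0.05 the counts were 888 above and 424 below the product, and 1142 above and 409 below the sum. The simple effect of SB24011 was called for far more genes: 44.6% of those tested differed between SB24011 and DMSO, and 42.3% between both agents and cGAMP. The estimates were narrow for many genes: the 95% interval of the log2 non-additivity lay within 1 log2 unit of 0 for 10822 of the 14419 genes with reads in every group (75.1%), and within 0.5 for 7623 (52.9%). The median over all genes tested was 0.04 on the log2 scale.

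The 2 scales called different sets. Above the expectation, 29 genes were called on both, 7 only against the product and 107 only against the sum. Below it, Atp8b4 and Kdm5b were called on both, 16 genes only against the product and 15 only against the sum. No gene was called in opposite directions. The departures below the product were larger in size: 15 of 18 were at least 2-fold, against 3 of the 36 above it. Of the 18, however, 10 carry locus numbers in place of a name, all with log2 values of -1.35 or lower. These 10 may not be separate measurements, as described below, so the 2 counts are not a comparison of separate genes. For 27 of the 136 genes above the sum, the sum expectation was 0 CPM or less, so no level with both agents could have been below it.

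**Figure D1:**
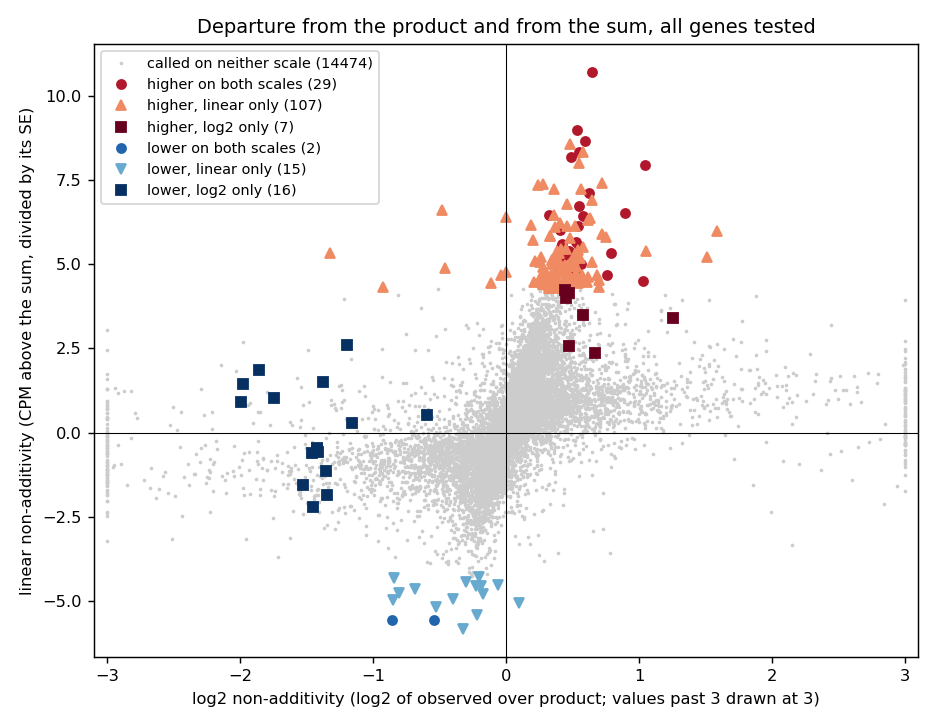
Log2 non-additivity (x axis, log2 of the level with both agents over the product expectation) against linear non-additivity divided by its standard error (y axis), with 1 point per gene tested. The 29 genes above both expectations lie to the upper right, as do 99 of the 107 above the sum alone, whereas the 16 genes below the product alone lie to the left, near 0 on the vertical axis.

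The counts depended on the scaling and on single libraries. The share of log2 calls above the product was 66.7% with TMM over the 18 libraries, 51.3% with RLE factors, 30.3% when only library size was used and 27.6% with TMM and the fit on the 12 libraries; the share of linear calls above the sum was 88.9%, 81.7%, 72.4% and 71% in the same order. The label numbers of the libraries fall into 3 runs, each with 1 library per treatment, which are called sets here and give the replicate numbers, and without set 1 the counts above the product and the sum were 5 and 38. With set as a block in the fit these counts were 211 and 547. DESeq2 gave 95 above the product, and limma on linear CPM 235 above the sum. Leaving out single libraries gave 8 above the product without cGAMP replicate 1, 13 without DMSO replicate 3, 16 without SB24011 replicate 2, 17 without DMSO replicate 1, 17 without SB24011 replicate 3, 18 without replicate 2 of both agents and 20 without cGAMP replicate 2. Above the sum there were 56 without DMSO replicate 3, 58 without DMSO replicate 1, 58 without cGAMP replicate 1, 79 without SB24011 replicate 2, 83 without cGAMP replicate 2, 84 without SB24011 replicate 3, 85 without replicate 2 of both agents and 87 without DMSO replicate 2. Below the product there were 28 without replicate 1 of both agents; below the sum there were 33 without that library, 4 without SB24011 replicate 3, 4 without cGAMP replicate 1 and 6 to 11 without any one other library except replicate 3 of both agents. Of the genes called, 12 of 54 on the log2 scale and 26 of 153 on the linear scale were called in every alternative run.

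Genes of DNA replication lay above both expectations by the highest list median. Their median log2 change against DMSO was -0.85 with both agents, -0.43 with cGAMP and -0.91 with SB24011. Of 51 tested members of a list of replication genes, 11 were called above the product (0.246% of all genes tested were) and 24 above the sum (0.928% of all), and none was called below either. For 12 of the 51 the sum expectation was 0 CPM or less, so these could not have been below it. For members that each agent alone lowered, the product lies above the sum, so a call above the sum is not by itself a departure from the product. The median log2 non-additivity of the list was 0.42, against 0.04 over all genes, and 50 of the 51 values were positive, against 58.7% of all genes. Members above the product were Cdc6, Ccne1, Mcm10, Chaf1a, Pold1, Fen1, Rpa2, Cdc45, Mcm6, Pold3 and Rfc5, which load, fire or copy replication origins or pack the new DNA. Across the alternatives the median stayed between 0.35 and 0.45, while the count above the product ranged between 3 without the libraries of set 1 and 29 with library set as a block. It was 4 without cGAMP replicate 1, 5 without DMSO replicate 3, 6 without SB24011 replicate 3, and 7 without cGAMP replicate 2, DMSO replicate 1 or replicate 2 of both agents; the 24 above the sum were 13 without cGAMP replicate 1, 15 without DMSO replicate 1 and 12 without DMSO replicate 3. None of 40 genes of mitosis was called on either scale, with a median of 0.05 and 26 positive values, a share near that of all genes.

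**Figure D2:**
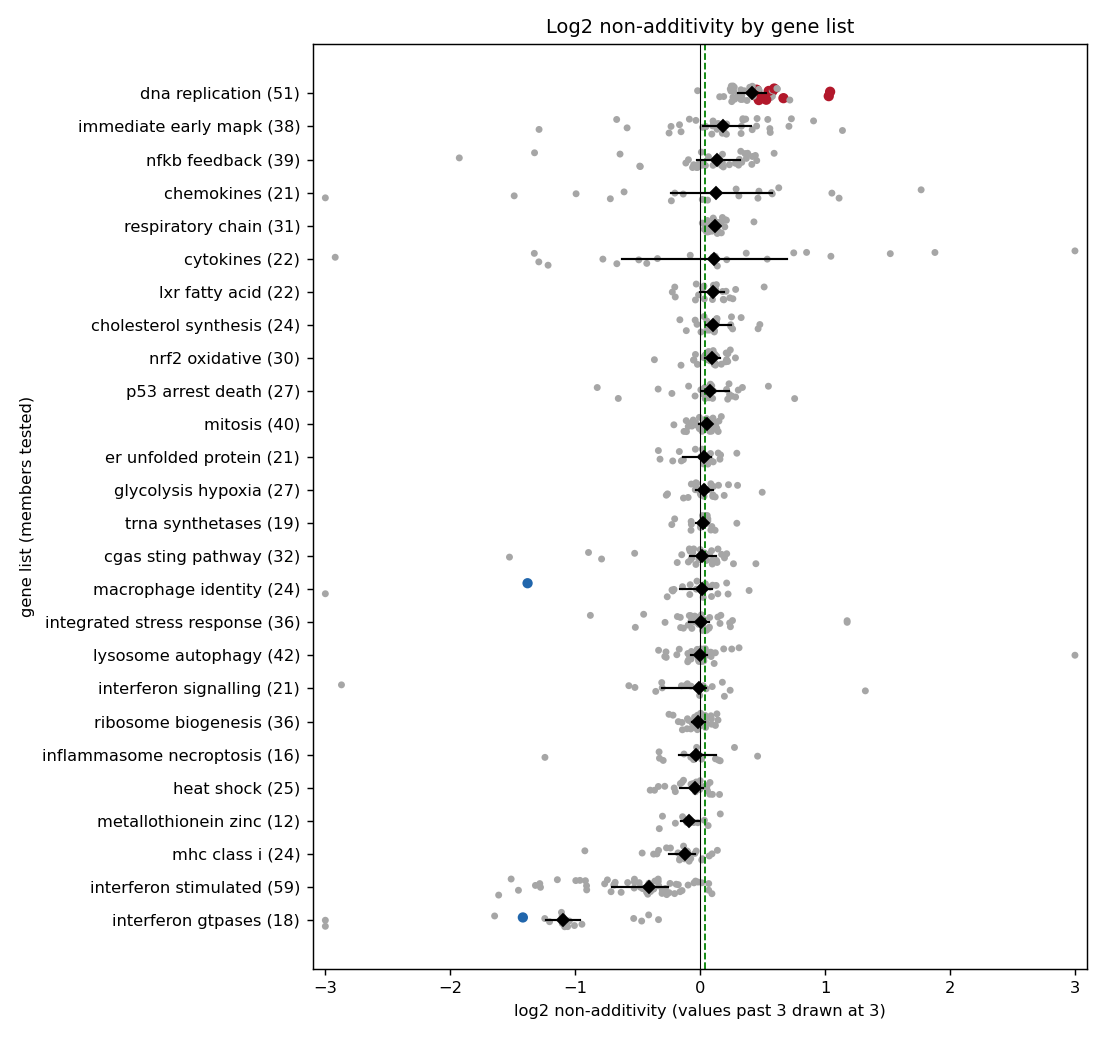
Log2 non-additivity of the tested members of 26 gene lists (x axis, log2), with the median as a diamond and the quartiles as a bar. Red points were called above the product and blue points below it, the dashed line is the median of all genes (0.04), and the replication list (median 0.42) and the 2 interferon lists (medians -0.41 and -1.09) lie at the ends.

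Cdc6, which helps load the replicative helicase MCM onto origins, was at 9.55, 11.5 and 9.56 CPM with both agents, 21.3, 26.0 and 26.4 CPM with cGAMP, 9.34, 10.6 and 11.4 CPM with SB24011, and 45.5, 56.4 and 53.6 CPM with DMSO. Libraries with both agents overlapped those with SB24011 alone and lay below those with cGAMP alone, which lay below DMSO. The product expectation was 4.95 CPM and the sum expectation -16.8 CPM. The level with both agents was 2.06-fold the product (log2 1.04 ± 0.17 SE, edgeR adjusted p = 0.0104) and 27.0 ± 3.4 CPM above the sum (adjusted p = 0.000739). Adding cGAMP to SB24011 gave a log2 change of -0.04 (edgeR adjusted p = 0.877), whereas cGAMP without SB24011 gave -1.08 (adjusted p = 1.93e-06).

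Dtl, a substrate receptor of the CRL4 ubiquitin ligase that removes the licensing factor Cdt1, was at 17.9, 18.4 and 18.9 CPM with both agents, 31.6, 33.2 and 34.4 CPM with cGAMP, 24.6, 24.4 and 23.6 CPM with SB24011, and 67.7, 69.1 and 66.8 CPM with DMSO. No 2 treatments overlapped, and the combination was lowest. The level with both agents was nevertheless 1.56-fold the product of 11.8 CPM (log2 0.64 ± 0.10 SE, edgeR adjusted p = 0.00469) and 29.0 CPM above the sum of -10.6 CPM (adjusted p = 9.8e-05). Dtl overlaps Ints7, which has more reads, and the strand setting of the counting is not given in the sources used here, so reads of the pair may have been shared. The log2 call was lost without the libraries of set 1 (adjusted p = 0.0664).

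Chaf1a, the large subunit of the histone chaperone CAF-1, was at 31.1, 31.1 and 29.7 CPM with both agents, 51.1, 56.4 and 61.3 CPM with cGAMP, 34.6, 34.4 and 36.4 CPM with SB24011, and 95.7, 98 and 98.4 CPM with DMSO. The groups did not overlap. It was 1.51-fold the product (log2 0.59 ± 0.10 SE, edgeR adjusted p = 0.0134) and 36.6 CPM above the sum of -5.95 CPM (adjusted p = 0.000579), and its log2 call was lost without the libraries of set 1 (adjusted p = 0.0754). Uhrf1, which brings the maintenance methyltransferase to newly copied DNA, had the largest called departure above the sum among the named genes. It was at 54.4, 56.8 and 56.4 CPM with both agents, 96.0, 121 and 113 CPM with cGAMP, 81.8, 78.7 and 76.1 CPM with SB24011, and 221, 244 and 230 CPM with DMSO, which is 98.7 ± 11.8 CPM above the sum of -42.8 CPM (adjusted p = 0.000579) and 1.49-fold the product (edgeR adjusted p = 0.0583, not called, although it was called with DESeq2, with limma, without cGAMP replicate 2 and without set 1). Like Cdc6, Dtl and Chaf1a, Uhrf1 could not have been below its negative sum expectation. The helicase subunits Mcm3, Mcm4 and Mcm5 were likewise above the sum, by 75.3, 57.2 and 77.0 CPM, and were not called on the log2 scale. Their sum expectations were 34.2, 17.8 and 68.6 CPM and their product expectations 79.7, 55.0 and 102 CPM. Each agent alone lowered these genes, so a level at the product would already be above the sum. On the linear scale Mcm4 was not called without DMSO replicate 2 or 3 (adjusted p = 0.0514 and 0.0625), nor Mcm5 without cGAMP replicate 1 or DMSO replicate 3 (adjusted p = 0.0507 and 0.0792).

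**Figure D3:**
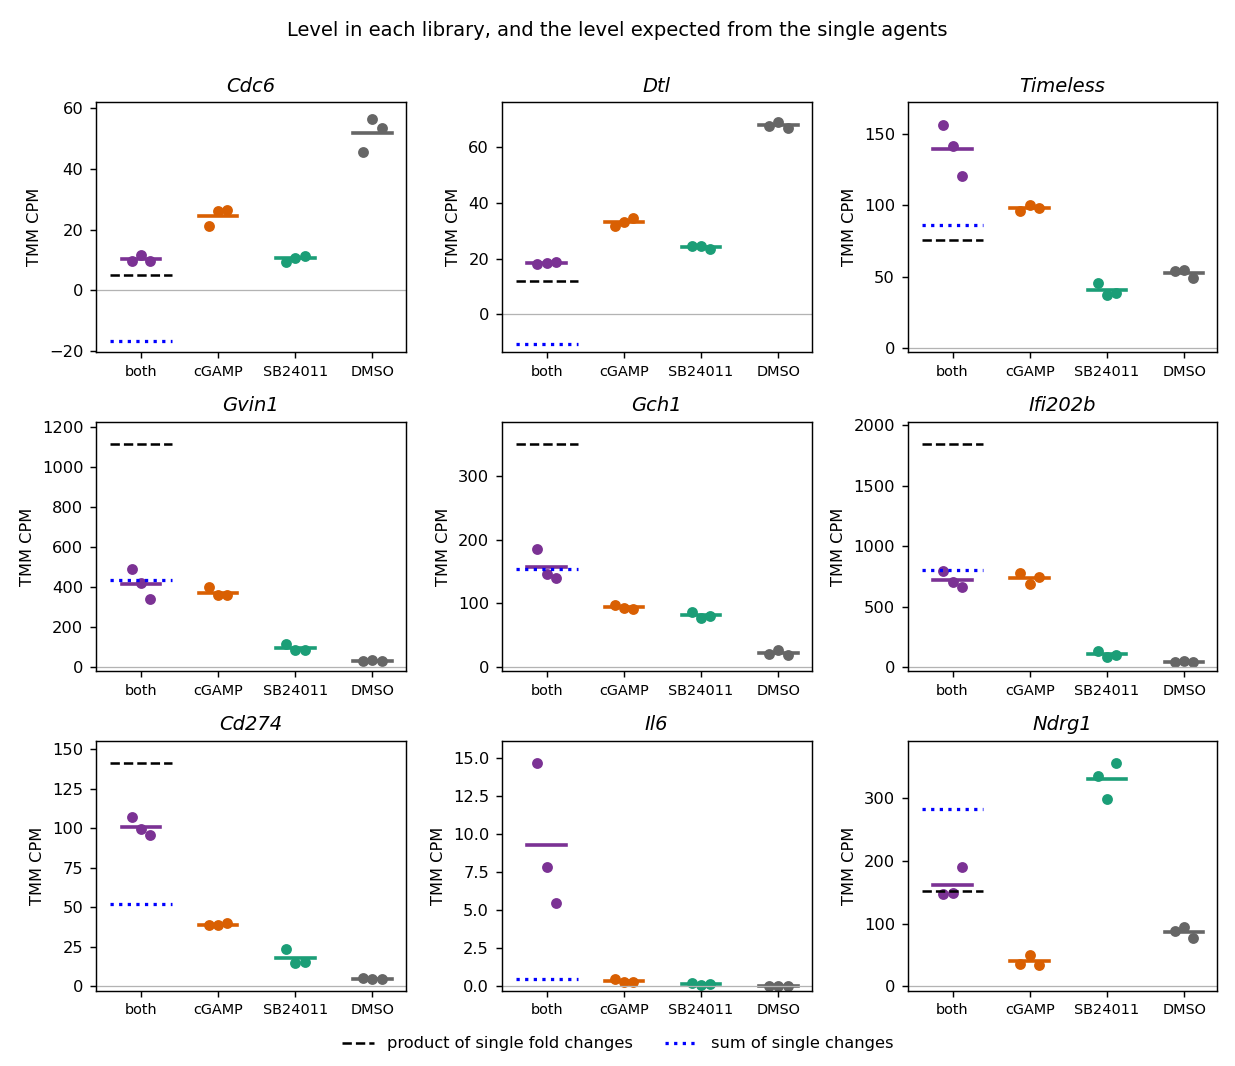
Level of 9 genes in each library (points, TMM CPM) with group means (horizontal lines), for both agents, cGAMP, SB24011 and DMSO, and the level expected with both agents from the product (dashed) and the sum (dotted) of the single effects. With both agents Cdc6, Dtl and Timeless lie above both expectations, Gvin1, Gch1 and Ifi202b below the product and close to the sum, Cd274 and Il6 above the sum, and Ndrg1 below the sum.

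Promoters of these genes were read for letters bound by E2F, the transcription factor family of the G1 to S transition. The search, chosen after the values were seen, looked for TTCCCGC or TTGGCGC on both strands in RefSeq promoter sequences of build GRCm38.p6, which run from 250 bases before to 50 bases after an annotated start. Of genes with an entry, 15 of 31 above the product (48.4%) and 48 of 111 above the sum (43.2%) held a match, against 1429 of 10459 genes tested (13.7%). None of 9 genes below the product held one. Of 3 other motifs searched in the same way, the interferon element, a pair of TTTC blocks with NN between them, was in 2 of the 31 promoters above the product (6.45%, against 4.06% of all), the AP-1 letters TGANTCA in 1 (3.23%, against 6.45%) and the kappaB letters, GGG and TTTCC with NN between them, in 0 (against 2.15%). Of the 9 genes below the product, 1 held the interferon element and 1 the AP-1 letters (11.1% each), and 0 the kappaB letters. The windows of Timeless, Ccne1, Mcm10, Ctnnal1, Rps6ka5 and Rftn1, all called above the product, held no E2F match. The Timeless window, chr10:128237816-128238115, lies inside the gene, which starts at 128232063, so the letters at that start were not read. The Cdc6 window, chr11:98907901-98908200, also lies inside its gene, which starts at 98907709. The Cdc6 match therefore lies downstream of that start, and the letters there were not read either. A match describes these letters only and is not evidence of binding. Promoters of 3 genes with a match are shown because these genes carry the result above, with the match in capitals: Cdc6 at chr11:98907901-98908200 on the plus strand, Dtl at chr1:191575495-191575794 on the minus strand and Chaf1a at chr17:56040166-56040465 on the plus strand.
Cdc6: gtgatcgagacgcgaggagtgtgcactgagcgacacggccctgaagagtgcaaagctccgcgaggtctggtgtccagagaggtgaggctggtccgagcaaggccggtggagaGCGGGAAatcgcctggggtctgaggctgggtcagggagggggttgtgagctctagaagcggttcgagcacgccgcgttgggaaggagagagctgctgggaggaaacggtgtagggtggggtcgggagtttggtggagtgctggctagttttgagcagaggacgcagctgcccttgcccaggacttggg
Dtl: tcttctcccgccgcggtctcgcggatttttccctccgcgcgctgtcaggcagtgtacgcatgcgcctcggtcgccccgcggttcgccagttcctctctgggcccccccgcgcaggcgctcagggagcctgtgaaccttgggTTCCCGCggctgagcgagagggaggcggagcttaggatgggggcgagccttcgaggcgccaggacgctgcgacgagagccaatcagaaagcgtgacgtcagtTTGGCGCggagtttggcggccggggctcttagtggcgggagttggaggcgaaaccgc
Chaf1a: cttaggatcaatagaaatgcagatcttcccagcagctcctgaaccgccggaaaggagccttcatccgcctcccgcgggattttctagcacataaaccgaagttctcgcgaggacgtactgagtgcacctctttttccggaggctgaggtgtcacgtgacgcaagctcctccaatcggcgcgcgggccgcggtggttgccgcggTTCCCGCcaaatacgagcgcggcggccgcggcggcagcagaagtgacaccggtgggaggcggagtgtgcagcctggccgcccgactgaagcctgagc

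For 2 cell cycle genes, the direction of one agent's change differed with the other agent present. Timeless, a component of the fork protection complex, was at 157, 142 and 121 CPM with both agents, 95.8, 100 and 98.5 CPM with cGAMP, 45.4, 37.1 and 38.4 CPM with SB24011, and 53.8, 54.6 and 48.9 CPM with DMSO. All libraries with both agents lay above all others, and those with SB24011 alone lay lowest. SB24011 lowered Timeless without cGAMP (log2 change -0.38, edgeR adjusted p = 0.0031) and raised it with cGAMP (log2 change 0.51, adjusted p = 0.000268). The departure was 1.86-fold from the product (log2 0.89 ± 0.13 SE, adjusted p = 0.00389) and 53.9 ± 8.3 CPM from the sum (adjusted p = 0.00433), and it was called in all 21 log2 and 20 linear alternatives.

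Ccne1, cyclin E1, which activates the kinase CDK2 at the start of S phase, was at 9.96, 15 and 11.3 CPM with both agents, 28.9, 31.6 and 34.4 CPM with cGAMP, 6.75, 9.61 and 9.57 CPM with SB24011, and 40.8, 48.6 and 49.5 CPM with DMSO. cGAMP raised it in the presence of SB24011 (log2 change 0.48, edgeR adjusted p = 0.0244) and lowered it in its absence (log2 change -0.55, adjusted p = 0.0057). The departure of log2 1.03 ± 0.21 SE (adjusted p = 0.0374) was not called in 8 of 12 fits that each left out 1 library (adjusted p between 0.0576 and 0.137), the exceptions being replicate 1 of both agents, cGAMP replicate 3, SB24011 replicate 2 and DMSO replicate 1, nor with RLE size factors (adjusted p = 0.0636). It was called in 9 of the 21 log2 alternatives. Its linear departure of 18.1 CPM from a negative sum expectation (adjusted p = 0.0388) was lost in 8 of 12 such fits (0.0505 to 0.17). Its paralog Ccne2 was at 3.42, 4.38 and 4.05 CPM with both agents, 14.3, 19 and 18.8 CPM with cGAMP, 5.89, 6.52 and 5.88 CPM with SB24011, and 39.4, 48.9 and 43.5 CPM with DMSO; it was 24.5 CPM above a sum of -20.5 CPM (adjusted p = 0.0015) and not called against the product (edgeR adjusted p = 0.238). Ccne2 overlaps Ints8, which has more reads.

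Among the genes called above the product, Ctnnal1, which encodes alpha-catulin, had the largest log2 value. It was at 6.63, 8.41 and 5.96 CPM with both agents, 12.2, 12.6 and 14.2 CPM with cGAMP, 2.73, 3.28 and 2.78 CPM with SB24011, and 13.1, 12.7 and 13.3 CPM with DMSO. Libraries with cGAMP and with DMSO overlapped, those with both agents were lower, and those with SB24011 alone were lowest. The level with both agents was 2.39-fold the product (log2 1.26 ± 0.18 SE, edgeR adjusted p = 0.00389), lost without the libraries of set 1 (adjusted p = 0.0968) and with limma on the deposited quantile-normalized values (adjusted p = 0.0629). The linear departure of 4.1 CPM was not called (adjusted p = 0.137).

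Interferon-inducible genes had the lowest list medians and lay below the product of the single effects and near their sum. Of 18 tested interferon-inducible GTPases, large and small GTPases that act on vacuoles of intracellular pathogens, all 18 had a negative log2 non-additivity with a median of -1.09, but only Gvin1 was called. Of 59 interferon-stimulated genes, 55 were negative with a median of -0.41, and none was called on the log2 scale. On the linear scale 1 of them, Eif2ak2, was called, below the sum. The median ratio of the level with both agents to the sum expectation was 1.08 for the GTPases and 0.985 for the interferon-stimulated genes, against 0.469 and 0.753 to the product. For the GTPases the median log2 change against DMSO was 5.69 with cGAMP and 1.25 with SB24011, and for the interferon-stimulated genes 2.53 and 0.55. The cGAMP change being much the larger, the sum lies near the level with cGAMP alone. Nearness to the sum can therefore not be told apart from no added effect of SB24011 on cGAMP. SB24011 replicate 1 had the highest mean of interferon-stimulated genes in its group (log2 CPM 6.49, against 5.73 and 6.03). Without it the median log2 non-additivity was -0.63 for the GTPases and -0.22 for the interferon-stimulated genes. The part of that library in the result was not tested further. Across all alternatives the median ran between -1.455 and -0.429 for the GTPases and between -0.556 and -0.215 for the interferon-stimulated genes.

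**Figure D4:**
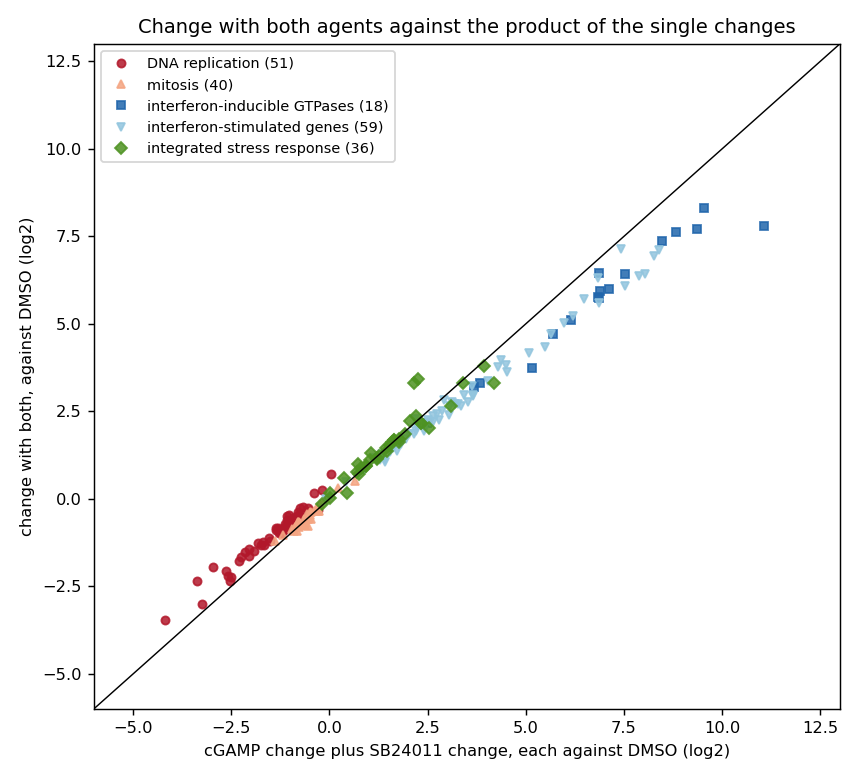
Change with both agents against DMSO (y axis, log2) against the summed log2 changes of cGAMP and of SB24011, each against DMSO (x axis), for members of 5 gene lists. All changes share the DMSO libraries, so only the vertical distance from the line, which is the log2 non-additivity, is to be read: the 18 GTPases and 55 of the 59 interferon-stimulated genes lie below the line and 50 of the 51 replication genes above it.

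Gvin1, a very large interferon-inducible GTPase, was at 489, 421 and 341 CPM with both agents, 398, 360 and 360 CPM with cGAMP, 113, 83.3 and 84.8 CPM with SB24011, and 30.7, 34.6 and 28.5 CPM with DMSO. Libraries with both agents overlapped those with cGAMP alone. The product expectation was 1116 CPM and the sum expectation 435 CPM; the level with both agents was 0.374 of the product (log2 -1.42 ± 0.20 SE, edgeR adjusted p = 0.00389) and -17.8 CPM from the sum (95% interval -99.5 to 63.9 CPM, not called). Among the 18 genes below the product, 10 carry locus numbers in place of a name, and their levels with both agents were 0.251 to 0.392 of the product and 0.822 to 1.11 of the sum. Of these, 6 lie on chromosome 7 between positions 105823257 and 106644646, on either side of Gvin1, and 4 on chromosome 1 between 85026349 and 85555681 (GRCm38). Neighbouring copies of a gene can share reads, and how reads with several positions were counted is not given in the sources used here, so these genes may not be separate measurements.

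Gch1, GTP cyclohydrolase I, which makes the first intermediate of tetrahydrobiopterin, the cofactor of inducible nitric oxide synthase, was at 185, 146 and 141 CPM with both agents, 97.8, 93.6 and 91.1 CPM with cGAMP, 87.1, 76.4 and 80.3 CPM with SB24011, and 20.0, 26.2 and 19.1 CPM with DMSO. All libraries with both agents were above all others. The level was 0.448 of the product of 351 CPM (log2 -1.16 ± 0.17 SE, edgeR adjusted p = 0.00469) and 3.50 CPM above the sum of 154 CPM (95% interval -21.7 to 28.7 CPM, not called). Ifi202b, an interferon-inducible DNA-binding protein of the AIM2-like family, was at 799, 707 and 659 CPM with both agents, 779, 688 and 748 CPM with cGAMP, 133, 83.7 and 101 CPM with SB24011, and 43.2, 46.1 and 37.6 CPM with DMSO. SB24011 raised Ifi202b without cGAMP (log2 change 1.32, edgeR adjusted p = 1.96e-06) and gave a log2 change of -0.03 with it (adjusted p = 0.871), a departure of -1.36 ± 0.20 SE from the product (adjusted p = 0.00469). Ifi202b was -80.5 CPM from the sum of 802 CPM (95% interval -231 to 70.2 CPM, not called). Gvin1, Gch1 and Ifi202b were called on the log2 scale in all 21 alternatives.

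Fcgr1, the high-affinity IgG receptor CD64, was at 392, 331 and 268 CPM with both agents, 277, 190 and 209 CPM with cGAMP, 78.4, 66.4 and 63.0 CPM with SB24011, and 18.3, 17.1 and 19.1 CPM with DMSO. Its departure was log2 -1.38 ± 0.26 SE (edgeR adjusted p = 0.0325). It was not called in 9 of the 12 fits without 1 library (adjusted p between 0.0565 and 0.0937), the exceptions being replicate 1 of both agents, cGAMP replicate 2 and cGAMP replicate 3. It was also lost without a filter on low counts (0.0562). Arid5a, an RNA-binding protein known to stabilise Il6 mRNA in mouse macrophages, was at 59.6, 46.5 and 44.7 CPM with both agents, 18.2, 15.5 and 16.7 CPM with cGAMP, 28.0, 24.2 and 26.1 CPM with SB24011, and 3.82, 4.05 and 3.51 CPM with DMSO. Both agents together gave the highest level in every library, at 0.435 of the product (log2 -1.20 ± 0.22 SE, edgeR adjusted p = 0.0241) and 1.28-fold the sum (not called). The Arid5a call was lost in 7 of 12 such fits (adjusted p between 0.0562 and 0.0892), namely without replicate 2 or 3 of both agents, cGAMP replicate 1, SB24011 replicate 1 or 3, or DMSO replicate 1 or 3. It was also lost without set 1 (0.0605) and with limma on the quantile-normalized values, where its log2 value was -0.24 (adjusted p = 0.786).

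Atp8b4, a putative phospholipid flippase, and Kdm5b, a histone H3 lysine demethylase, were below both expectations. Atp8b4 was at 148, 144 and 151 CPM with both agents, 115, 122 and 116 CPM with cGAMP, 190, 163 and 177 CPM with SB24011, and 95, 99.6 and 94.6 CPM with DMSO. The 4 treatments did not overlap, and the combination lay between the single agents. The departure was log2 -0.54 ± 0.09 SE (edgeR adjusted p = 0.0134) and -49.9 ± 9.0 CPM (adjusted p = 0.0118). The log2 call was lost without DMSO replicate 3 (adjusted p = 0.0511), and both calls without the libraries of set 1 (0.121 and 0.1). Kdm5b was at 11, 11.7 and 12.7 CPM with both agents, 13, 14.1 and 14.7 CPM with cGAMP, 15.1, 16 and 19 CPM with SB24011, and 10.6, 10.2 and 11.9 CPM with DMSO, so each agent alone gave higher levels than both together. Its departure was log2 -0.86 ± 0.15 SE (edgeR adjusted p = 0.0164) and -7.95 ± 1.43 CPM (adjusted p = 0.0118), the log2 call being lost without replicate 2 of both agents, SB24011 replicate 3 or DMSO replicate 1 (adjusted p between 0.0534 and 0.0563) and both calls without set 1 (0.0931 and 0.0656).

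Several genes were called above the sum of the single changes and were not called against the product. Cd274, which encodes PD-L1, the ligand of the T cell checkpoint receptor PD-1, was at 107, 99.6 and 95.4 CPM with both agents, 38.6, 38.6 and 39.9 CPM with cGAMP, 23.4, 15 and 15.1 CPM with SB24011, and 5.42, 4.51 and 4.88 CPM with DMSO. The treatments did not overlap. Against a sum expectation of 51.9 CPM the combination was 48.8 ± 7.4 CPM higher (adjusted p = 0.00433, called in all 20 linear alternatives). Against a product expectation of 141 CPM it was lower, with a log2 non-additivity of -0.48 (95% interval -0.92 to -0.04) that was not called (edgeR adjusted p = 0.487).

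Il6, the cytokine interleukin-6, was at 14.6, 7.82 and 5.46 CPM with both agents, 0.456, 0.279 and 0.259 CPM with cGAMP, 0.241, 0.0863 and 0.132 CPM with SB24011, and had no read with DMSO, where 3 reads would be 0.0456 to 0.0614 CPM. The combination was 8.80 ± 1.65 CPM above the sum expectation of 0.492 CPM (adjusted p = 0.0218), 18.9-fold the sum. With no read in DMSO no product expectation can be formed. Replicate 1 of both agents was the highest, and the call was lost without replicate 2 of both agents (adjusted p = 0.0897) and with limma on linear CPM (adjusted p = 0.111).

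Dusp4, a phosphatase of MAP kinases, was at 235, 203 and 168 CPM with both agents, 73.5, 91.9 and 78.2 CPM with cGAMP, 91.1, 93.7 and 92.7 CPM with SB24011, and 51.2, 63.7 and 49.3 CPM with DMSO. The combination was 83.0 ± 16 CPM above the sum (adjusted p = 0.0193). It was not called without replicate 1 or 2 of both agents or cGAMP replicate 1 (adjusted p between 0.0507 and 0.076) nor without set 1 (0.233) or with limma on linear CPM (0.0575). Against the product it was not called (log2 interval 0.15 to 0.96, edgeR adjusted p = 0.318). Tiparp, an ADP-ribosyltransferase induced by the aryl hydrocarbon receptor, was at 207, 211 and 181 CPM with both agents, 135, 135 and 137 CPM with cGAMP, 71.5, 63.3 and 64.0 CPM with SB24011, and 70.0, 60.7 and 57.3 CPM with DMSO. With SB24011 the log2 change of Tiparp was 0.56 in the presence of cGAMP (edgeR adjusted p = 4.36e-05) and 0.08 in its absence (adjusted p = 0.467). The difference between these changes, log2 0.48 (95% interval 0.23 to 0.73), was not called (edgeR adjusted p = 0.104), although it was with DESeq2 (adjusted p = 0.0476). The linear departure of Tiparp was 60.8 ± 10.5 CPM (adjusted p = 0.00865, lost without set 1 at 0.0823). Cx3cr1, the fractalkine receptor, which both agents lowered, was at 5.89, 5.79 and 6.10 CPM with both agents, 22.6, 20.9 and 21.0 CPM with cGAMP, 23.2, 15.2 and 15.2 CPM with SB24011, and 121, 85.9 and 94.3 CPM with DMSO; its value of 66.9 CPM above the sum (adjusted p = 0.00623) was taken against an expectation of -61.0 CPM. The product expectation of Cx3cr1 was 3.84 CPM, and it was not called against the product (edgeR adjusted p = 0.584).

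In lists of inflammatory genes few members were called. None of 22 cytokine genes was called on the log2 scale and 1, Il6, on the linear scale, with a median log2 non-additivity of 0.11. Csf3, the cytokine G-CSF, was at 8.85, 4.04 and 5.22 CPM with both agents, 0.193, 0.581 and 0.560 CPM with cGAMP, 2.40, 1.85 and 2.17 CPM with SB24011, and 0.250, 0.914 and 0.118 CPM with DMSO. It was 2.87-fold the product (log2 1.52, 95% interval -0.24 to 3.28, edgeR adjusted p = 0.639) and 3.90 CPM above the sum (95% interval 0.674 to 7.13 CPM, adjusted p = 0.335), and was called on neither scale. Il1a, interleukin-1 alpha, was at 2.50, 0.296 and 0.273 CPM with both agents. It had no read with cGAMP, was at 0.386, 0.104 and 0.0993 CPM with SB24011, and was at 0.0587, 0 and 0 CPM with DMSO. No product can be formed for Il1a, and its 0.834 CPM above the sum (95% interval -0.262 to 1.93 CPM) was not called (adjusted p = 0.652). For 21 chemokine and chemokine receptor genes these were 0 and 1, Cx3cr1, with a median of 0.12. For 39 NF-kappaB targets and feedback genes they were 0 and 1, Cd274, with a median of 0.14. Of 38 immediate-early and MAP kinase feedback genes none was called against the product and Dusp4 against the sum, with a median of 0.18 and 29 positive values, where 58.7% of all genes were positive. The medians of the cytokines, the chemokines and the NF-kappaB genes were negative without replicate 1 of both agents (-0.12, -0.07 and -0.13).

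Genes central to STING signalling were not called in this fit. With library set as a block, Ifnb1 and Tnf were called above the sum (Wald test, adjusted p = 0.0445 and 0.0347). Ifnb1, interferon beta, was at 5.10, 3.76 and 3.36 CPM with both agents, 2.35, 2.07 and 1.83 CPM with cGAMP, 0.129, 0.0345 and 0.182 CPM with SB24011, and 0.103, 0 and 0.0980 CPM with DMSO. It was 1.1-fold the product (95% interval of the log2 value -1.41 to 1.69) and 1.93 CPM above the sum (95% interval 0.50 to 3.36 CPM, adjusted p = 0.243). Cxcl10, a chemokine induced by interferon, was at 1405, 1146 and 1029 CPM with both agents, 1221, 974 and 1183 CPM with cGAMP, 29.7, 8.70 and 18.7 CPM with SB24011, and 14.3, 10.1 and 10.9 CPM with DMSO; its log2 interval was -1.57 to 0.35. Tnf was at 626, 434 and 427 CPM with both agents, 297, 270 and 280 CPM with cGAMP, 112, 103 and 111 CPM with SB24011, and 68.5, 86.9 and 60.3 CPM with DMSO. Tnf was 176 CPM above the sum (95% interval 80.5 to 272 CPM) with an adjusted p of 0.0848, and its log2 value was 0.21 (-0.26 to 0.69).

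Ifit1 and Isg15, interferon-stimulated genes whose products bind foreign RNA and modify proteins, had log2 values of -1.28 (95% interval -2.16 to -0.40) and -0.91 (-1.52 to -0.29) and were not called (edgeR adjusted p = 0.287 and 0.282). SB24011 replicates spread widely for Ifit1, at 127, 35.8 and 69.7 CPM, and without replicate 2 it was called (log2 -1.63, adjusted p = 0.00588). Tmem173, which encodes STING, was at 32.9, 25.5 and 23.9 CPM with both agents, 56.6, 40.1 and 42.9 CPM with cGAMP, 20.5, 18.4 and 19.9 CPM with SB24011, and 31.4, 27 and 29.5 CPM with DMSO; it was 0.881 of the product, with a log2 interval of -0.64 to 0.27. Of 32 genes of the cGAS and STING pathway none was called on either scale in this fit, and their median was 0.02. With library set as a block, Tmem173 was called below the sum (Wald test, adjusted p = 0.0393). Isg15 was then called below the product (edgeR adjusted p = 0.0427). The log2 intervals of Cxcl10, Ifit1 and Isg15 did not exclude a 2-fold departure below the product, nor did that of Ifnb1 exclude one in either direction.

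The stress response that SB24011 raised was, by its list median, close to both the product and the sum. Trib3, a pseudokinase induced by the factors ATF4 and CHOP, was at 235, 213 and 215 CPM with both agents, 15.1, 23.6 and 17.9 CPM with cGAMP, 204, 213 and 211 CPM with SB24011, and 11.4, 22.4 and 14 CPM with DMSO, 0.897 of the product and 1.04-fold the sum (log2 interval -0.76 to 0.45). The 36 genes of the integrated stress response had a median log2 non-additivity of 0.00 with 18 positive values, and none was called. Their median log2 change against DMSO was 0.01 with cGAMP and 1.41 with SB24011, so the product and the sum nearly coincide for most of such a list. The median ratio of the level with both agents was 1.00 to the product and 1.01 to the sum. Gdf15, a stress-induced cytokine, was at 17.1, 12.4 and 14.4 CPM with both agents, 0.228, 0.999 and 0.582 CPM with cGAMP, 13.5, 16.5 and 15.5 CPM with SB24011, and 1.01, 1.95 and 1.1 CPM with DMSO. It was 2.26-fold the product and 1.02-fold the sum. Its log2 value of 1.18 (95% interval 0.27 to 2.08) was not called (edgeR adjusted p = 0.351), nor was its linear value of 0.22 CPM.

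Genes below the sum included ones that one agent raised and the other lowered. Ndrg1, a stress-response gene of the N-myc downstream regulated family, was at 147, 149 and 189 CPM with both agents, 36.2, 49.3 and 34.3 CPM with cGAMP, 335, 299 and 355 CPM with SB24011, and 88.2, 94.1 and 77.5 CPM with DMSO. The treatments did not overlap. It was -121 ± 24 CPM from the sum of 283 CPM (adjusted p = 0.0218) and 1.07-fold the product of 152 CPM (log2 interval -0.30 to 0.48). The linear call was lost without replicate 2 of both agents, SB24011 replicate 1 or 3 or DMSO replicate 1 (adjusted p between 0.05 and 0.107), without set 1 (0.296) and in the fit on the 12 libraries (0.0538). Ern1, the endoplasmic reticulum stress sensor IRE1 alpha, was at 28.4, 27.9 and 29.7 CPM with both agents, 12, 11.1 and 11.9 CPM with cGAMP, 43.1, 42.6 and 41.9 CPM with SB24011, and 13.4, 14.2 and 13.9 CPM with DMSO, which is -11.7 ± 2.0 CPM from the sum (adjusted p = 0.00839), lost without set 1 (0.0621).

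Eif2ak2, the double-stranded RNA kinase PKR, was at 473, 434 and 427 CPM with both agents, 707, 634 and 707 CPM with cGAMP, 205, 141 and 154 CPM with SB24011, and 223, 209 and 189 CPM with DMSO. It was -198 ± 45 CPM from the sum (adjusted p = 0.0407) and was not called in 9 of the 12 fits without 1 library (adjusted p between 0.0529 and 0.159), the exceptions being replicate 1 of both agents and SB24011 replicates 1 and 2. It was also lost without a filter on low counts (0.0544) and in the fit on the 12 libraries (0.0698). Hspa1a, an inducible HSP70 chaperone, was at 2.06, 1.3 and 1.09 CPM with both agents, 20.1, 11 and 13.5 CPM with cGAMP, 0.450, 0.38 and 0.464 CPM with SB24011, and 3.24, 2.67 and 4.14 CPM with DMSO. cGAMP raised Hspa1a and SB24011 lowered it with and without the other agent, and the level with both was -10.5 ± 2.1 CPM from the sum (adjusted p = 0.0268), lost without any one cGAMP replicate, SB24011 replicate 3 or DMSO replicate 1 (adjusted p between 0.0502 and 0.112), or with limma on linear CPM (0.0575). Its log2 value of -0.40 had an interval of -1.48 to 0.68.

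The groups outside the crossed design gave values beside these, since no library analysed here had 10 uM SB24011 or 7a without cGAMP and the contrast could not be formed. With 10 uM SB24011 on cGAMP, Cdc6 was at 8.96, 10.5 and 9.78 CPM and Timeless at 157, 155 and 136 CPM. With 7a on cGAMP, Cdc6 was at 21.8, 26.7 and 29.0 CPM and Timeless at 119, 120 and 105 CPM. Il6 was at 11.4, 7.84 and 5.30 CPM with 10 uM SB24011 on cGAMP and at 0.667, 1.28 and 0.653 CPM with 7a on cGAMP. For these genes the libraries with 10 uM SB24011 overlapped those with 20 uM on cGAMP, whereas those with 7a lay apart from both. Against cGAMP alone, the libraries with 7a overlapped for Cdc6. They lay above cGAMP alone for Timeless (95.8 to 100 CPM with cGAMP) and Il6 (0.259 to 0.456 CPM with cGAMP).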

How the data were processed

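RNA of 12 libraries (4 treatments of RAW264.7 cells, 3 libraries each) was compared within a series of 18. Per the submitters' processing notes, Trimmomatic (0.38), HISAT2 (2.1.0), StringTie (2.1.3b), Bowtie2 (2.3.4.1) and the build GRCm38 (mm10) were used; what each did, the counter and the strand setting are not given in the sources. Per the labels' protocols, a stranded mRNA kit made the libraries. The authors deposited raw read counts per gene, used for all main tests. The FPKM values that the authors deposited beside them were not used. A further table deposited by the authors holds log2 values of quantile-normalized FPKM over the 18 libraries, used in 1 alternative.

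A robust quasi-likelihood model of edgeR (4.0.16, R 4.3.3) was fitted to the counts of the 18 libraries in 6 groups after filterByExpr and TMM scaling, with 12 residual degrees of freedom. The linear test used group levels in CPM from that fit, with standard errors by the delta method. Benjamini-Hochberg adjustment covered 14650 genes. A value after ± is an SE. Alternatives used other scalings, filters and fits, left out libraries, and ran DESeq2 1.42.0 and limma 3.58.1. Simulated counts were made for these 14650 genes, with departures planted in only some of them. Of the planted departures, the log2 test recovered 79% of 2-fold and 97% of 4-fold ones, and the linear test 85% and 94%. These rates cover the planted genes and need not hold for every gene tested. Ifit1, at log2 -1.28 ± 0.41 SE in the real counts, was not called. In the simulation the log2 test called 198 genes and the linear test 242. Some of these were counted neither as planted nor as unchanged, and the shares of unchanged genes leave them out. Among the called genes that were counted, 6.38% with the log2 test and 10.1% with the linear test were unchanged. These shares need not hold for genes whose sum expectation is not positive, which in the real counts were 27 of those called above the sum. The median SE of the log2 value was 0.15, and 0.11 for genes of at least 10 CPM.

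The members and the gene lists were chosen with earlier results of these data known. Named genes were called genes averaging 1 CPM or more that have a gene name: the 10 with the largest log2 departures and the 8 with the largest linear departures in each direction, up to 3 called members of each list, and a fixed set of 14 genes (Ifnb1, Cxcl10, Ifit1, Isg15, Tnf, Il6, Csf3, Il1a, Tmem173, Gdf15, Trib3, Hspa1a, Ccne2 and Cx3cr1). Choices by log2 departure needed 3 reads in each group. Other genes named were chosen after their values were seen. Gene coordinates are from the RefSeq table of GRCm38, in which 45679 of 45777 genes were found.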

Additional observations from a re-analysis of the deposited data

Results flagged for a closer look

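The change with SB24011 differed with and without cGAMP for 36 genes in the higher and 18 genes in the lower direction on the log2 scale, by edgeR's test of the difference itself. Among them an agent moved 4 named genes in opposite directions in the presence and in the absence of the other agent. For Timeless, with a log2 non-additivity of 0.89, this held for SB24011. For Ccne1, at 1.03, and Atp8b4, at -0.54, it held for cGAMP. For Kdm5b, at -0.86, it held for both agents, although the log2 change with SB24011 on cGAMP was -0.24 and not called (edgeR adjusted p = 0.0849). No cause was tested.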

How the results depend on the processing

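Of 2007 recomputed values of named genes, 28 changed sign, none of them called. The counts of genes above the product, below the product, above the sum and below the sum, 36, 18, 136 and 17 as reported, were 211, 110, 547 and 173 with the replicate block. The numbers in the labels were not taken to pair the libraries. Same-numbered libraries deviated together with correlations of 0.0242 or more (median 0.117, 12 of 18 over 0.1), against a median of -0.0632 for other pairs. All 12 libraries correlated best with their own number, which is a hint from the data and not the design. With the block, 184 genes were above both expectations, 39 below both and 5 below the product and above the sum; 29 replication genes were above the product and 39 above the sum. The block also called Ifnb1 (adjusted p = 0.0445), Tnf (0.0347) and Tmem173 (0.0393) on the linear scale and Isg15 (0.0427) and Tiparp (0.00736) on the log2 scale. Without set 1 there were 5 genes above the product, 38 above and 9 below the sum, 4 above both, 1 below both, and 3 and 15 replication genes above the product and the sum. RLE gave 20 above the product, 17 above both and 7 replication genes above the product. Library size alone gave 10 above the product, 35 below the sum, 8 above both and 5 replication genes above the product. The 12 libraries alone gave 8 above the product, 66 above and 27 below the sum, 7 above both, 6 below both and 5 replication genes above the product. DESeq2 gave 95 above and 78 below the product, with 21 replication genes, and limma on linear CPM 235 above and 36 below the sum. With 1 library left out, the counts ran between 8 and 39 above the product, 14 and 28 below it, 56 and 146 above the sum, 4 and 33 below it, 7 and 36 above both, 1 and 3 below both, 0 and 1 below the product and above the sum, and 4 and 13 and 12 and 27 replication genes above the product and the sum. The cause of these shifts was not tested. Medians of 15 of 26 lists changed sign in some alternative; those of the replication list and of the 2 interferon lists did not.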

Other observations

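Of 24 genes of cholesterol synthesis, 20 had a positive log2 non-additivity, where 58.7% of all genes did, with a median of 0.10 against 0.04 over all genes; none was called on the log2 scale and 2 were above the sum. Acat2, which makes the first intermediate of the pathway, was at 50.3, 59.3 and 58.4 CPM with both agents, 97.1, 103 and 106 CPM with cGAMP, 70.7, 68.1 and 71.2 CPM with SB24011, and 158, 162 and 160 CPM with DMSO, 44.0 ± 7.5 CPM above the sum (adjusted p = 0.00839, lost without set 1 at 0.0594). Insig1, which retains the SREBP activation complex in the endoplasmic reticulum, was 44.7 CPM above the sum (adjusted p = 0.0388) and was not called in 9 of 12 fits without 1 library, the exceptions being replicate 1 of both agents, cGAMP replicate 2 and SB24011 replicate 1.

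Genes of the respiratory chain had small positive log2 values in all 31 tested members, with a median of 0.12, and none was called on either scale. Of 24 genes of MHC class I presentation, 5 were positive, with a median of -0.12 and no call.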
